A study of Mus musculus with 6 samples.

Results

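Poly(A) sites that lie inside introns of protein-coding genes were followed in C57BL/6J mouse retina from mid-gestation to the third postnatal week. Of the 32688 poly(A) sites in the deposited table, 2242 qualified. Their 3′ edge lay inside a GENCODE M21 (GRCm38/mm10) protein-coding gene on the same strand, in no exon of any same-strand gene, and not within 1000 bases downstream of another same-strand gene. The rule uses positions only, but it was chosen with earlier results of these data known. The sites fell in 1625 coding genes, of 12983 coding genes with a site. The labels give untreated retina tissue of 1 strain with no other genotype or treatment. The embryonic stages are E13.5, E15.5 and E18.5, the postnatal ones P0, P6 and P21, and each has 1 sample. PA-seq, which primes on poly(A) tails with oligo(dT) and keeps the strand, counted RNA 3′ ends as tags. With 1 sample per stage no value has a replicate check, so each test of stage is a trend along the order of the 6 libraries, from E13.5 to P21; values below are listed in that order.

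A poly(A) site is where the cleavage and polyadenylation machinery cuts a nascent transcript and adds the tail, usually some bases downstream of an AATAAA or ATTAAA signal. A site inside an intron ends the transcript before the remaining exons are made. The shorter RNA can carry its own last exon and encode a protein with a different C-terminal end, or it can be unstable. Splicing and intronic polyadenylation compete, and the U1 small nuclear ribonucleoprotein, which marks 5′ splice sites, is known to hold back early cleavage. Neurons are known for long genes and long 3′ UTRs, and some retinal genes use a shortened last exon as their main form.

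The 30 transcript bases that end at or a few bases before the cleavage edge are shown for 8 abundant or changing sites that coincide with an annotated end of a shorter transcript of the same gene. They come from the GENCODE M21 transcripts, read 5′ to 3′ in the sense of the gene, with the poly(A) signal in capitals.
Rpl26: gcacggctttcATTAAAgactgcttaagta
Vopp1: atttaaaaaatAATAAAagtgaatttagtc
Plcg1: gactgccaAATAAAtcatcctcatgtcctt
Cux1: gataattgaAGTAAAtatcttttatacaaa
Spock1: tctgtctcAATAAAttttactttgtccgca
Stard7: cttttggctgAATAAAattccattgtatac
Tpm1: agaagcaagaAATAAAacatttatacggta
Lrrfip1: tcattgaAATAAAagcattttctaatttta
The stretches lie on mm10 at chr11:68904505-68904534 (+), chr6:57752265-57752294 (-), chr2:160763257-160763286 (+), chr5:136266415-136266444 (-), chr13:57426094-57426123 (-), chr2:127285676-127285705 (+), chr9:67028848-67028877 (-) and chr1:91117286-91117315 (+), in that order. The signal begins 19 bases before the edge in Rpl26 and 23 bases before it in Cux1, Stard7 and Lrrfip1, with the other 4 between. Cux1 carries the single-base variant AGTAAA in place of the common forms. Rpl26, Vopp1, Plcg1 and Cux1 are among the 10 intronic sites with the most tags, as is Spock1, which also rose against its 3′ UTR sites. Stard7 had one of the largest rises, and Tpm1 and Lrrfip1 had 2 of the largest falls.

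Signals could be read for the 323 intronic sites that lay up to 10 bases past an annotated end of their own gene. Of these, 260 (80.5%, 95% Wilson interval 75.8 to 84.4) held AATAAA or ATTAAA on the sense strand 40 to 11 bases before the edge, a site with both being counted once. Among the 21091 3′ UTR sites the share in the same window was 74.2% (73.7 to 74.8). This set holds all 3′ UTR sites, whatever their distance from an annotated end, whereas the 323 intronic sites were chosen by that distance. The shares therefore do not show whether intronic sites hold a signal more often than 3′ UTR sites. AATAAA was found at 61.9% of the intronic sites and ATTAAA at 20.1%, beside 57.3% and 18.7% of the 3′ UTR sites. A match is only a match of letters. For the other intronic sites the sequence was not read, because only 79 of the 2242 (3.52%) have all 40 bases before the edge inside annotated transcripts.

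Most intronic sites did not lie shortly past an annotated transcript end. Of the 2242 sites, 341 lay within 25 bases past an annotated end of their own gene and 290 lay 26 to 1000 bases past one. The other 1611, called distant below, lay over 1000 bases past the nearest upstream end or had no end upstream. Ends downstream of a site were not measured, so a distant site can lie shortly before one. The 341 sites lay a median of 2 bases past the exon before (quartiles 1 and 4). The first group had a median of 123 tags over the 6 libraries and the last 76, beside 397 at 3′ UTR sites, so intronic sites were weaker than 3′ UTR sites and those at annotated ends were the stronger ones among them. All sites in the table have at least 41 tags. The authors' enrichment score, whose computation is not given in the sources used here, had a median of 5.75 at intronic sites and 26.1 at 3′ UTR sites.

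The distant sites leaned towards the 5′ end of their gene. The position of a site from the start (0%) to the end (100%) of its gene had a median of 43.1% over the 1611 distant sites, of which 18.8% lay in the first 10% of the gene. For sites within 25 bases past an own end the median was 61.9%, and 9.38% lay in the first 10%. A site with no end upstream counts as distant, and near the start of a gene fewer ends can lie upstream. Part of this difference therefore follows from how the classes were defined. Host genes were long, with a median of 57042 bases against 25008 bases for all coding genes with a site. Introns are numbered on the merged exons of each gene: 422 sites lay in the first intron and 398 in the last. An exon on the opposite strand overlapped 77 sites. Of 1549 genes that alone hosted a site, 1187 held 1 intronic site and 27 held 5 or more.

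**Figure D1:**
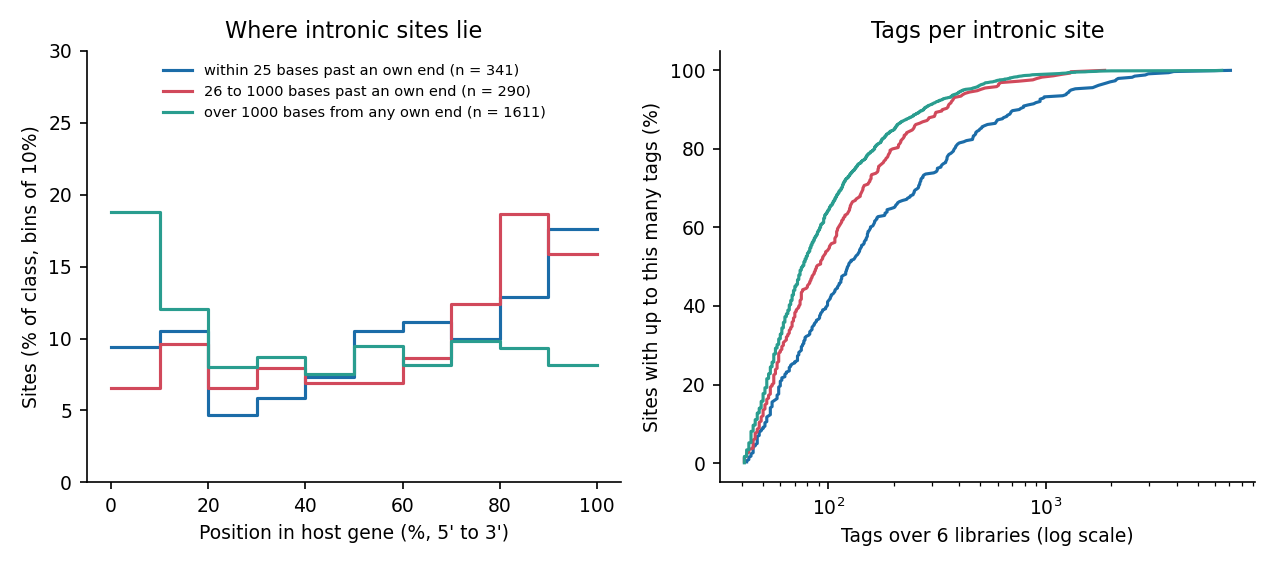
Left, position of intronic sites along their host gene (%, 5′ to 3′) as the percentage of each location class per bin of 10%. Right, the cumulative percentage of sites by tags summed over 6 libraries, on a log axis. The 1611 distant sites have 18.8% of their number in the first bin. The 341 sites at annotated ends have the most tags (median 123). The label of the distant sites, over 1000 bases from any own end, counts upstream ends only.

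Intronic sites took a growing share of the tags pooled over their genes. A pooled share weights genes by their tags, so it can rise without a change of the share within single genes. The share was computed over the 1341 genes with both an intronic and a 3′ UTR site (1890 intronic sites), as tags on intronic sites divided by tags on intronic and 3′ UTR sites. It was 9.49%, 10.2%, 10.2%, 11.1%, 11.1% and 11.7% in stage order (95% Wilson interval 9.41 to 9.58 at E13.5 and 11.7 to 11.8 at P21). PCR reads are not independent molecules, so these intervals cover counting error only. The share was lowest in the earliest and highest in the latest library, a ratio of 1.24.

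Over the 6 libraries the share followed stage order with Spearman's rho of 0.943 (two-sided exact permutation test, p = 0.0167, 0.025 after Benjamini-Hochberg adjustment over 3 relations). Pearson's r was 0.966 (exact permutation p = 0.00833, adjusted 0.0125), and 0.878 without E13.5 and P21 (exact permutation p = 0.25, where 4 libraries allow no p below 0.0833). The first count columns gave 9.53% to 11.4% and the second 9.44% to 12.1%, from E13.5 to P21. The relation no longer passed without E13.5, E15.5, E18.5 or P21 (rho 0.9, exact permutation p = 0.0833 each). It also missed the threshold when genes were weighted equally (rho 0.771, exact permutation p = 0.103), with mean shares per gene of 13.6%, 14.9%, 14.3%, 16.0%, 15.4% and 15.7%.

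A rise of the pooled share was seen for the distant sites. For the 1372 such sites with a 3′ UTR site in their gene the share was 7.74%, 8.67%, 8.75%, 9.72%, 9.96% and 10.9%. It was higher in each library than in the one before, and the exact permutation test gave rho 1 with p = 0.00278, the smallest that 6 libraries allow (adjusted 0.00834). Pearson's r was 0.982 (exact permutation p = 0.00278), and 0.945 without E13.5 and P21 (exact permutation p = 0.0833). For the 518 sites up to 1000 bases past an own end the shares were 11%, 11.2%, 11.1%, 11.7%, 11% and 10.9% in stage order (rho -0.257, exact permutation p = 0.658; Pearson's r -0.0883, exact permutation p = 0.883, and 0.0594 without E13.5 and P21). The difference between the 2 trends was not tested. Oligo(dT) can also prime on A-rich stretches inside an RNA. The sequence after the distant sites was not read, so what such priming adds to their tags was not tested.

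As a percentage of all tags, the intronic sites held 1.41% at E13.5 and 1.89% at P21, and the distant ones 0.722% and 1.25%. Other classes of sites moved the same way: from E13.5 to P21 sites antisense to genes went from 0.503% to 1.12%, intergenic sites from 1.52% to 2.53% and sites in introns of noncoding genes from 0.189% to 0.364%. Sites in exons of noncoding genes went from 1.24% to 1.68%, and those in other exons of coding genes from 1.44% to 1.65%. The share of 3′ UTR sites went from 85.5% to 81.8%, and that of sites in coding exons from 0.254% to 0.151%. What these moves have to do with the intronic rise was not tested.

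**Figure D2:**
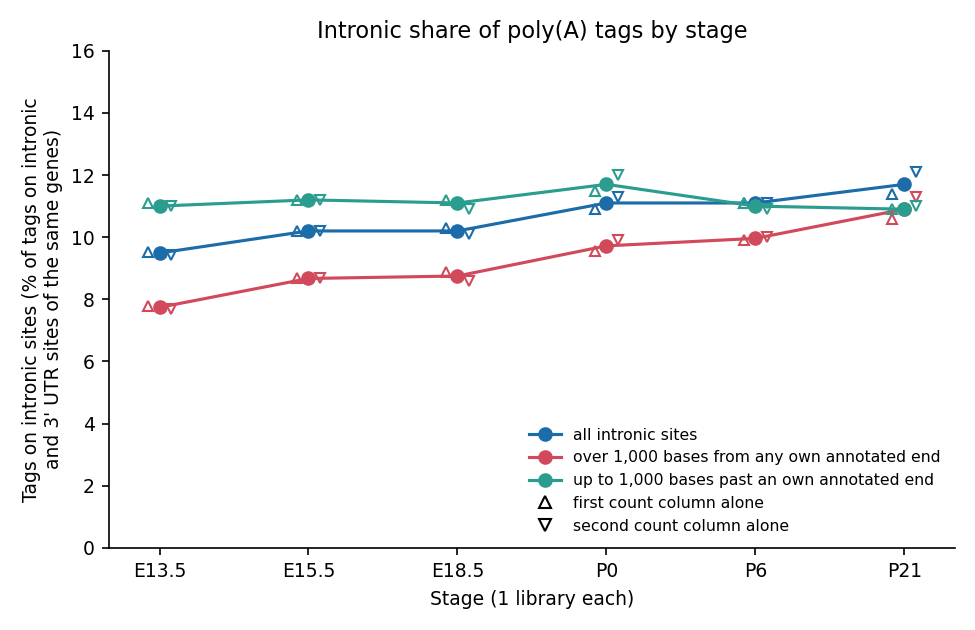
Tags on intronic sites as a percentage of tags on intronic and 3′ UTR sites of the same genes, by stage with 1 library each. Filled points are both count columns added, and open triangles are the first (up) and the second (down) column alone. Distant sites (labelled over 1000 bases from any own annotated end, counting upstream ends only) go from 7.74% to 10.9%. Sites up to 1000 bases past an own annotated end stay between 10.9% and 11.7%.

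Single genes differed widely. Among 1249 hosts with at least 20 tags in every library, the median intronic share was 6.15%, 7.39%, 7.10%, 8.03%, 7.53% and 7.53% in stage order. Intronic sites held over 50% of the tags in 86, 95, 91, 100, 96 and 97 of them. Both values were lowest at E13.5 and highest at P0. From E13.5 to P21 the share was higher in 749 hosts and lower in 498, and it differed by 10 percentage points or more upwards in 171 and downwards in 86.

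More intronic sites rose than fell. In the abundance test (edgeR quasi-likelihood F test on stage order, Benjamini-Hochberg adjusted p of 0.05 or less), 391 of 2233 intronic sites tested rose (17.5%) and 87 fell (3.90%). Of all 32610 sites tested, 15.1% rose and 8.93% fell, so the count of rises was near the background and the count of falls below it. The median fitted change, a log2 change from the first stage to the last, was 0.518 for intronic sites and 0.00698 for all sites. Sites in the first intron had 91 rises and 9 falls of 421. Without P21 the counts were 101 rising and 22 falling sites, and without E13.5 they were 165 and 38.

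Against the 3′ UTR sites of the same gene, rises again outnumbered falls. This test compares the ratio of a site to the summed 3′ UTR sites of its gene across stages, so it is free of the level of the gene. It covered the 1313 intronic sites that averaged 10 or more tags per library, as did the 3′ UTR sites of their gene, of 1890 with a 3′ UTR site; 577 failed this filter, and 299 more sites with 1 host had no 3′ UTR site. Of the 1313, 84 rose (6.40%) and 31 fell (2.36%), where 2.19% of all 14505 sites tested rose and 1.72% fell. Most of the latter are 3′ UTR sites (12561). Of 427 sites in other exons of coding genes 4.92% rose and 3.04% fell, and of 204 in coding exons 0.49% and 2.94%. The median fitted log2 change of the ratio was 0.37 for intronic sites and -0.03 for all sites. These counts rest on the ends of the series: without E13.5, 5 sites rose and 3 fell, and without P21, 1 and 2. They were 49 and 14 without E15.5, 125 and 56 without P0, and 40 and 14 without P6.

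The counts were also taken by the location of the site. Of 936 distant sites tested, 69 rose and 21 fell, with a median of 0.43. Within 25 bases past an own end, 10 of 200 rose and 9 fell, with a median of 0.02, and at 26 to 1000 bases 5 of 177 rose and 1 fell. In first introns 26 of 229 sites rose and 7 fell (median 0.69), in last introns 13 of 226 rose and 3 fell (0.18), and in middle introns 45 of 858 rose and 21 fell (0.30). The differences between these groups were not tested.

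**Figure D3:**
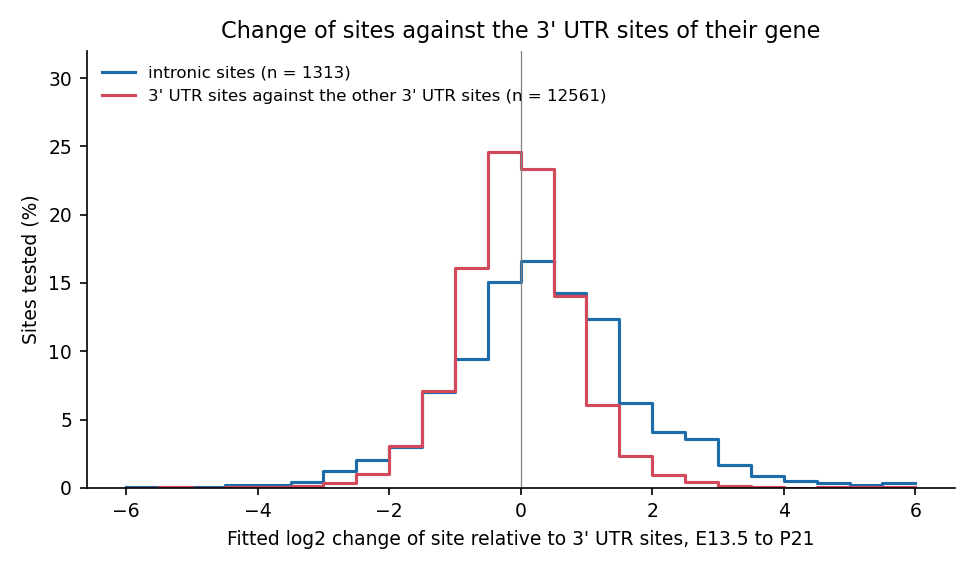
Distribution of the fitted log2 change of a site relative to the 3′ UTR sites of its gene from E13.5 to P21, as the percentage of sites tested per bin of 0.5. The outermost bins hold all values beyond them. The 1313 intronic sites are shifted to positive values (median 0.37) and have wider tails than the 12561 3′ UTR sites set against the other 3′ UTR sites of their gene (median -0.05).

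The intronic site with the most tags belongs to Rpl26, a ribosomal protein of the large subunit. The site at chr11:68904511-68904535 lies 1 base past an annotated end in intron 4, the last of the gene model. It had 1449, 1441, 1681, 839, 848 and 815 tags in stage order, and fell in abundance (log2 change -1 ± 0.2, SE, 6 libraries, edgeR quasi-likelihood adjusted p = 0.0102). The 3 embryonic libraries are all above the 3 postnatal ones. Rpl26 has no 3′ UTR site in the table, so this site stands for the gene.

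Rgs9 encodes a GTPase-activating protein that speeds the recovery of the photoreceptor light response, and its retinal form is known to end with a shorter C-terminal end than the striatal form. Its intronic site at chr11:109229854-109229903 lies in intron 19 of 20, 5203 bases past the nearest upstream annotated end. It held 205, 440, 503, 669, 1563 and 2578 tags. Scaled to library totals these were 53.8, 114, 108, 204, 380 and 657 CPM (counts scaled to a common library total), and the site rose in abundance by a fitted log2 change of 3.50 ± 0.30 (SE; edgeR quasi-likelihood adjusted p = 0.0015). The first count column held 159, 338, 296, 390, 810 and 1215 of its tags and the second 46, 102, 207, 279, 753 and 1363. The embryonic and P0 tags thus lay mostly in the first column. As a share of the site and 3′ UTR tags, the site had 99.0%, 96.3%, 93.1%, 96.4%, 97.6% and 98.4% in stage order. The 3′ UTR sites of Rgs9 held 2 to 42 tags per library, so nearly all tags of the gene lay at the intronic site in every library, and the ratio did not pass the test (1.21 ± 0.76, adjusted p = 0.394).

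Other genes also had most of their tags at intronic sites, here just past an annotated transcript end. Vopp1, a vesicular protein linked to cell survival, had 95.2% to 98.5% of its tags at an intronic site (chr6:57752263-57752305, 3877 tags in all) 2 bases past an own end. Ilkap, a phosphatase associated with integrin-linked kinase, had 88.5% to 97.3%, and Camta1, a calmodulin-binding transcription activator, 87.6% to 93.2%. Both of these sites lie 1 base past an own end. The change against the 3′ UTR sites did not pass the test in Vopp1 (-1.36 ± 0.45, adjusted p = 0.114), Ilkap (0.32 ± 0.62, adjusted p = 0.828) or Camta1 (-0.28 ± 0.41, adjusted p = 0.754). Plcg1, the phospholipase C that acts below receptor tyrosine kinases, had an intronic site 1 base past an own end and no 3′ UTR site. The site held 656, 705, 729, 613, 703 and 270 tags in stage order. Its P21 library was the lowest, and the abundance test was not passed (-0.76 ± 0.43, adjusted p = 0.231).

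At 2 of the 10 strongest sites the balance moved towards the intronic site. Spock1 encodes testican, a proteoglycan of the extracellular matrix of the brain. Its site at chr13:57426093-57426114, 1 base past an own end, took 80.6%, 81.7%, 86.0%, 88.3%, 91.3% and 91.6% of the tags. The share was higher in each library than in the one before, and the ratio rose by 1.56 ± 0.35 on the log2 scale (edgeR quasi-likelihood adjusted p = 0.0312), while the tags of the site fell in abundance from 510 to 327 (-0.89 ± 0.28, adjusted p = 0.0498). Mxra7, a transmembrane protein named for matrix remodelling, had a site in its last intron 1154 bases past an own end (chr11:116806575-116806602). Its share was 44.1%, 51.9%, 45.9%, 71.9%, 69.2% and 67.6% in stage order, with all 3 postnatal libraries above the embryonic ones (1.68 ± 0.43, adjusted p = 0.0476). Without E13.5, E15.5, P6 or P21 neither call was made (adjusted p = 0.0986 to 0.237), and that of Mxra7 was also lost without E18.5 (adjusted p = 0.0512), with DESeq2 (adjusted p = 0.0509) and with sites up to 1000 bases downstream added to the 3′ UTR sites (adjusted p = 0.0544). With days in place of stage order, or each site set against all other sites of its gene (diffSpliceDGE), neither passed (adjusted p = 0.11 to 1). Spock1 missed the threshold in the second columns alone (adjusted p = 0.082).

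The remaining strong sites are in Cux1 and Olfm1. Cux1 encodes a homeodomain repressor, and longer transcripts of the same gene encode CASP, a Golgi protein. The site at chr5:136266412-136266435, 3 bases past an own end, took 58.4%, 60.8%, 64.7%, 64.1%, 68.6% and 71.7% of the tags in stage order (0.81 ± 0.30, edgeR quasi-likelihood adjusted p = 0.149). Olfm1, a secreted olfactomedin glycoprotein of neurons with short and long forms, had an intronic site 1 base past an own end. Its share was 22.5%, 23.8%, 26.9%, 31.0%, 29.7% and 29.7% (0.61 ± 0.29, adjusted p = 0.255). In these genes P21 stood above E13.5, but the ratio did not pass the test.

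The largest rises against the 3′ UTR were seen mostly at sites with few embryonic tags. Ncam1 encodes the neural cell adhesion molecule, whose shortest form lacks the transmembrane exons and is held in the membrane by a lipid anchor. A site in intron 22 of 25 (chr9:49515132-49515151, 2146 bases past an own end) had 2, 10, 5, 7, 26 and 171 tags in stage order, where the 3′ UTR sites had 30 to 51. Its share was 6.25%, 18.9%, 8.93%, 14.9%, 45.6% and 85.1%, so that P21 stood above all other libraries (6.30 ± 1.14, SE, edgeR quasi-likelihood adjusted p = 0.0134). A second site in that intron (chr9:49517275-49517290), 3 bases past an annotated end and singled out after its values were seen, had 2, 2, 3, 5, 10 and 75 tags (6.69 ± 1.11, adjusted p = 0.0095; 0.17 with diffSpliceDGE and 0.0864 in the first columns alone).

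Crb1 is a polarity protein of photoreceptors and Müller glia, in which loss causes retinal dystrophy. A site 18 bases past an own end in intron 8 (chr1:139245599-139245626) had 2, 2, 0, 10, 45 and 82 tags, a share of 1.65%, 0.976%, 0%, 5.38%, 14.2% and 16.6%. The P6 and P21 libraries are the high ones, and the ratio rose (5.78 ± 1.09, edgeR quasi-likelihood adjusted p = 0.0152). E18.5 held no tag and the other embryonic libraries few, so the size of the change is uncertain. It was 4.47 without E18.5 and 5.19 with DESeq2. Slc1a2, a glutamate transporter, had 3, 8, 10, 3, 219 and 215 tags in intron 18 (chr2:102779537-102779555). Its share was 1.28% to 4.65% up to P0 and 22.7% and 21.7% at P6 and P21 (4.45 ± 1.05, adjusted p = 0.0380).

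Ppp1r3f, a regulatory subunit of protein phosphatase 1, had 1, 1, 4, 2, 60 and 80 tags in intron 2 (chrX:7568824-7568842). The share was 1.14% to 3.96% up to P0, 39.0% at P6 and 35.2% at P21 (6.54 ± 1.09, edgeR quasi-likelihood adjusted p = 0.00958). Gm45716, a gene model without a name, had 2, 6, 2, 7, 67 and 100 tags in intron 2, a share of 1.25% to 4.93% up to P0 and 26.6% at P21 (5.02 ± 0.73, adjusted p = 0.0066). Both were split between the libraries up to P0, which were low, and the later pair.

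In Stard7 and Med25 P21 stood furthest apart. Stard7, a carrier of phosphatidylcholine to mitochondria, had a site 4 bases past an own end in intron 2 (chr2:127285693-127285709), with a share of 1.80%, 5.32%, 6.52%, 8.06%, 12.3% and 39.6% (4.64 ± 0.74, edgeR quasi-likelihood adjusted p = 0.0074). Med25, a subunit of the Mediator complex that links activators to RNA polymerase II, had a site in intron 2 (chr7:44889693-44889711, 21 bases past an own end) with 1.15%, 2.33%, 3.60%, 5.48%, 7.81% and 20.7% (4.21 ± 0.51, adjusted p = 0.00321). Both shares were higher in each library than in the one before.

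Trp53, the p53 tumour suppressor, had a site in its first intron (chr11:69583805-69583825) with 15, 15, 32, 145, 80 and 29 tags in stage order, while its 3′ UTR sites went from 298 tags at E13.5 to 50 at P21. The share was 4.79%, 6.61%, 13.2%, 44.8%, 32.1% and 36.7%, highest at P0 (4.05 ± 0.77, edgeR quasi-likelihood adjusted p = 0.0156). The P0 library also held the most tags of 19 measured lens genes, summed at 5756 CPM beside 3799 at E15.5 and 301 to 1239 in the other libraries. No intronic site lay in a gene of the lens list, and what lens cells add to the tags of Trp53 was not tested. Without E15.5 and P0, a choice made after seeing the data, the rise of Trp53 was 3.68 (adjusted p = 0.000531) and each of these 8 largest rises passed.

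The 8 largest rises depended on the first and last libraries. Without E13.5 all but Med25 lost the call (edgeR adjusted p = 0.0598 to 0.146), and without P21 the 7 still tested lost it (adjusted p = 0.0703 to 0.272), though fitted changes stayed at 3.37 or more. The call of Slc1a2 was also lost without E15.5, E18.5 or P6 (adjusted p = 0.0579 to 0.0968), and those of Crb1 and Slc1a2 with DESeq2 (adjusted p = 0.155 and 0.307). With days in place of stage order Ppp1r3f, Crb1, Slc1a2 and Trp53 did not pass (adjusted p = 0.0672 to 0.217), nor did Ncam1, Slc1a2 and Trp53 with diffSpliceDGE (0.0659 to 0.383). Slc1a2 also missed the threshold in the second columns alone (adjusted p = 0.0505). In the second count column at E13.5 the intronic share of Ppp1r3f, Ncam1, Gm45716 and Stard7 was 0%, and in the first it was 3.57%, 12.5%, 2.41% and 3.33%.

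Among the 8 sites with the largest fitted falls, those of Ryr3, Lrrfip1, Mbd2 and Ostm1 started from the highest shares. Ryr3, a calcium release channel of the endoplasmic reticulum, had a site in intron 67 of 106 (chr2:112714420-112714465) with 122, 91, 82, 40, 27 and 23 tags, while its 3′ UTR sites went from 7 to 136. Its share fell at each stage, from 94.6% to 72.8%, 65.6%, 48.8%, 23.9% and 14.5% (log2 change of the ratio -5.98 ± 0.59, SE, edgeR quasi-likelihood adjusted p = 0.00085). Of the named sites tested in all 6 fits that leave out a library, it alone kept its call in each (highest adjusted p = 0.0477). The nearest upstream annotated end of Ryr3 is 144864 bases away.

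Lrrfip1 encodes a cytoplasmic nucleic acid sensor that also binds the Flightless protein. Its site, 1 base past an own end (chr1:91117293-91117316), took 74.5%, 74.6%, 68.9%, 51.6%, 42.2% and 30.5% of the tags in stage order (-2.97 ± 0.47, edgeR quasi-likelihood adjusted p = 0.00728). Mbd2, a protein that binds methylated CpG and recruits a deacetylase complex, had a site in intron 3, 2 bases past an own end. The Mbd2 site held 364, 250, 144, 107, 57 and 19 tags, a share of 58.5%, 51.8%, 35.2%, 42.8%, 24.8% and 7.98% (-3.30 ± 0.55, adjusted p = 0.00958). Ostm1, the partner of a lysosomal chloride transporter, had 51.9% to 58.7% up to P0, 18.9% at P6 and 17.1% at P21 at a site in intron 2 (chr10:42585803-42585823; -2.73 ± 0.68, adjusted p = 0.0456). The embryonic and P0 shares of Ostm1 lay far above the later ones.

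The other 4 fell from lower shares. Mcf2l, a guanine nucleotide exchange factor, had a site in intron 3 (chr8:12896058-12896078) with 16.2%, 7.79%, 9.42%, 6.20%, 1.41% and 0.556% in stage order (-4.31 ± 0.64, edgeR quasi-likelihood adjusted p = 0.00676). Tpm1, an actin-binding tropomyosin with several alternative last exons, had 6.64%, 4.98%, 3.55%, 1.38%, 0.770% and 0.705% at a site 1 base past an own end (chr9:67028847-67028866; -3.67 ± 0.51, adjusted p = 0.00603). Araf, a kinase above MEK and ERK, had a share of 19.2% at E13.5 and 1.08% at P21 in its first intron (chrX:20833513-20833543; -3.40 ± 0.71, adjusted p = 0.0232). Rab11fip3, an effector of recycling endosomes, had 11.6% and 0.901% (chr17:26067247-26067263; -2.83 ± 0.71, adjusted p = 0.0468). In these genes P21 was the lowest library.

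Without P21, 7 of these 8 falls lost the call (all but Ryr3; edgeR adjusted p = 0.0593 to 0.336), and without E13.5, 6 did (all but Ryr3 and Lrrfip1; 0.0551 to 0.162). Those of Rab11fip3 and Ostm1 were also lost without E15.5, E18.5 or P6, and that of Araf without P6 (adjusted p = 0.0581 to 0.148). With diffSpliceDGE those of Lrrfip1, Rab11fip3 and Ostm1 did not pass (adjusted p = 0.131 to 0.956). Ostm1 did not pass in the first columns alone (adjusted p = 0.0969), nor Rab11fip3 in the second (0.096). Without E15.5 and P0 each of the 8 passed.

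**Figure D4:**
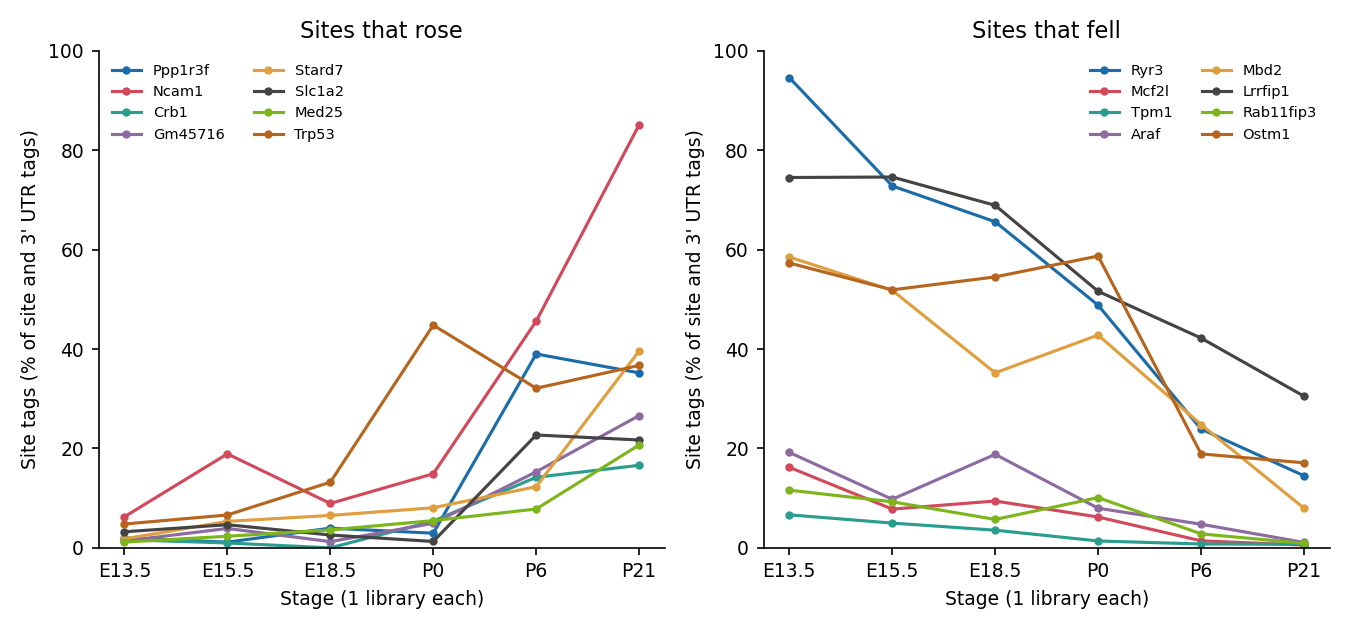
Tags at an intronic site as a percentage of the tags at the site and the 3′ UTR sites of its gene, by stage with 1 library each, for the 8 sites with the largest rise (left) and the 8 with the largest fall (right). Ncam1 goes from 6.25% to 85.1% and Ryr3 from 94.6% to 14.5%, while Trp53 is highest at P0 (44.8%).

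Genes of rod and cone photoreceptors, the cells that capture light, held 38 intronic sites in 17 of 48 listed genes. In abundance 33 of 36 sites tested rose and 0 fell (edgeR quasi-likelihood, adjusted p of 0.05 or less), while 15.1% of all sites rose. The summed level of the 46 measured genes of the list went from 2787 CPM at E13.5 to 5173, 4463, 6959, 15194 and 21870 CPM at P21. In bulk tissue, fewer cells of a type and less RNA per cell cannot be told apart. Against the 3′ UTR sites of their gene, 6 of 24 rose and 0 fell (11 and 0 at an unadjusted p under 0.05; 3 and 0 with DESeq2), where 2.19% of all sites and 6.40% of all intronic sites rose. The median log2 change was 1.51, beside 0.37 for all intronic sites and -0.03 for all sites.

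Rp1, a microtubule protein of the photoreceptor outer segment, had the strongest of these sites (chr1:4342489-4342512), with 11, 53, 28, 50, 192 and 519 tags in stage order. Up to P0 these lay almost wholly in the first count column (11, 53, 24 and 48 tags, against 0, 0, 4 and 2 in the second), whereas P6 (107 and 85) and P21 (254 and 265) were near even. The early values thus rest on 1 column. The site rose in abundance (4.87 ± 0.72, edgeR quasi-likelihood adjusted p = 0.00355), but its share of 50%, 55.2%, 47.5%, 52.1%, 35.4% and 48.0% showed no trend that passed the test (-0.62 ± 0.52, adjusted p = 0.541). So this site gained tags along with the 3′ UTR sites of the gene, which went from 11 to 563 tags.

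Rpgr and Rpgrip1, partners in the connecting cilium of photoreceptors, moved towards the intron. Rpgr is known for a retinal isoform that ends inside what is an intron of the ubiquitous form. The Rpgr site in intron 16 (chrX:10173707-10173727) had 2.34%, 2.05%, 4.22%, 5%, 10.9% and 13.2% of the tags (3.11 ± 0.50, edgeR quasi-likelihood adjusted p = 0.00755). It lies 7261 bases past the nearest upstream annotated end, and whether it is the end of that isoform was not tested. Rpgrip1 had 4.24%, 3.36%, 4.31%, 6.93%, 8.57% and 9.28% at a site in intron 16 (chr14:52147644-52147668; 1.74 ± 0.43, adjusted p = 0.0450). A stronger site in its last intron had 5.83% to 12.9% and did not pass (0.85 ± 0.37, adjusted p = 0.217). In the intron 16 sites of both genes the P6 and P21 libraries were the highest. As in Rp1, embryonic tags of some sites lay mostly in the first count column. The first and second columns held 7 and 0, 28 and 6, and 34 and 16 tags at the last-intron site of Rpgrip1. At the Prom1 site in intron 4, named below, they held 7 and 1, 14 and 2, and 11 and 3. The Rpgr site was nearer to even (5 and 2, 3 and 3, and 12 and 6).

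Prom1, Prph2 and Tulp1 had small intronic shares that rose. These sites and that of Rpgr are named because they passed the test, after their values were seen. Prom1, a protein of disc membranes, had a site 4 bases past an own end in intron 4 (chr5:44099651-44099670) with 1.37%, 2.19%, 1.65%, 1.98%, 4.64% and 7.09% (2.53 ± 0.49, edgeR quasi-likelihood adjusted p = 0.0169). Its site in intron 6 went from 0.347% to 2.87% (2.76 ± 0.58, adjusted p = 0.0237). Prph2, which shapes the rims of outer segment discs, had 0, 1, 2, 2, 17 and 47 intronic tags beside 495 to 5704 at the 3′ UTR (4.01 ± 0.81, adjusted p = 0.0205). Tulp1, which acts in protein transport of photoreceptors, had 0, 2, 2, 2, 24 and 44 (3.69 ± 0.84, adjusted p = 0.0340). At E13.5 both are at 0, so these fitted values rest on very few early tags. The DESeq2 fits gave 4.08 for Prph2 and 3.68 for Tulp1.

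Without E13.5 none of these 6 sites passed (edgeR adjusted p = 0.0592 to 0.133), nor did the 4 still tested without P21 (0.0878 to 0.222), and 4 were lost without P6, 2 without E15.5 and 2 without E18.5. DESeq2 did not call Rpgrip1, Tulp1 or Prph2 (adjusted p = 0.0598 to 0.107), and diffSpliceDGE called none of the 6 (adjusted p = 0.0676 to 0.779). Without E15.5 and P0, Rpgrip1 and Prph2 did not pass (adjusted p = 0.0611 to 0.1). The first columns alone lost 4 of the 5 calls tested there (adjusted p = 0.0527 to 0.118), the second columns 3 of 6 (0.0661 to 0.198) and days in place of stage order 3 of 6 (0.0614 to 0.163). With sites up to 1000 bases downstream added to the 3′ UTR sites, Rpgrip1 did not pass (adjusted p = 0.057).

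**Figure D5:**
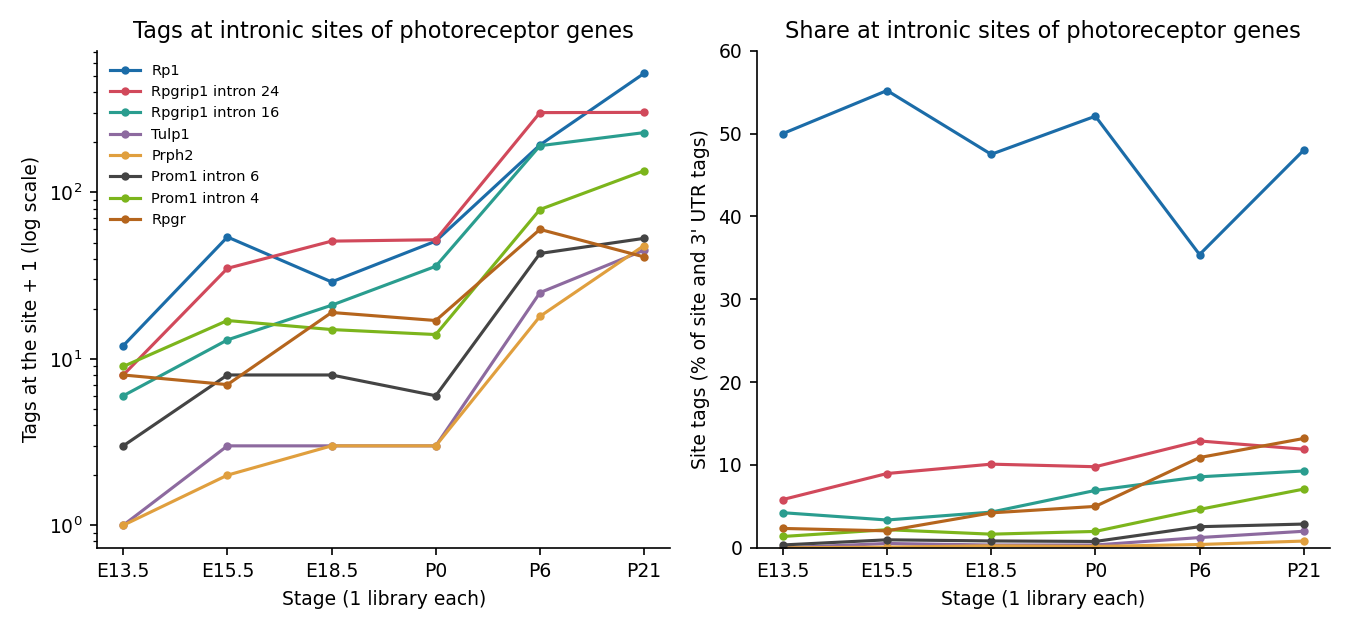
Intronic sites of photoreceptor genes by stage with 1 library each: tags at the site plus 1 on a log axis (left) and the percentage of the tags at the site and the 3′ UTR sites of its gene (right). Tags increase at all 8 sites from E13.5 to P21, and Rp1 has the highest share (35.4% to 55.2%).

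Sites in synapse, ion channel and guidance genes were set against the 3′ UTR, a test in which 6.40% of all intronic sites rose and 2.36% fell. Of 28 sites tested in genes of the synapse and transmitter release, 0 rose and 1 fell (0 and 2 at an unadjusted p under 0.05, 0 and 1 with DESeq2; median -0.285). It was a site of Nrxn2, a presynaptic adhesion receptor, whose share went from 5.63% to 0.634% (-3.57 ± 0.56, edgeR quasi-likelihood adjusted p = 0.00728). Of 29 sites in ion channel genes, 0 rose and 2 fell (4 and 3 unadjusted, 0 and 2 with DESeq2; median 0.27): Ryr3, and Scn8a, a voltage-gated sodium channel, whose share went from 27.4% to 3.26% (-3.29 ± 0.78, adjusted p = 0.0383). Nrxn2 and Scn8a were named after their values were seen. Both calls were lost without E13.5 and without P21, and that of Scn8a also without E15.5 or P6 (highest adjusted p = 0.0958 for Nrxn2 and 0.287 for Scn8a). Scn8a did not pass with diffSpliceDGE (adjusted p = 0.0827) or in the first columns alone (0.0971).

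Of 29 sites in axon guidance and adhesion genes, 2 rose, both in Ncam1, and 1 fell, in Robo2, a receptor for Slit repellents. Its site 3 bases past an own end (chr16:73920203-73920222) had 126, 136, 134, 86, 79 and 33 tags, a share of 22.6%, 19.5%, 15.6%, 15.6%, 14.3% and 7.73% (-1.45 ± 0.37, edgeR quasi-likelihood adjusted p = 0.0488). The Robo2 call was lost with DESeq2 (adjusted p = 0.0717) and in 5 of the 6 fits that leave out a library (without E13.5, E15.5, E18.5, P6 or P21; highest adjusted p = 0.344). It was also lost with diffSpliceDGE (adjusted p = 0.562), with no filter (0.0541) and in the second columns alone (0.219). Gria4, a subunit of AMPA receptors, had 17% to 20% in all 6 libraries at a site 683 bases past an own end (0.15 ± 0.33, adjusted p = 0.847), while its tags rose in abundance from 47 to 146 (1.58 ± 0.32, adjusted p = 0.00989).

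Several of these sites were lowest at P21 only. Dab1, the adaptor that carries the Reelin signal, had 18.6% to 21.5% up to P6 and 6.34% at P21 at a site 1 base past an own end (-1.09 ± 0.61, edgeR quasi-likelihood adjusted p = 0.337). Dlg2, a scaffold of the postsynaptic density, had 10.3% to 14.2% up to P6 and 6.43% at P21 (-0.70 ± 0.52, adjusted p = 0.475). A site of Nlgn1 had 6.65% to 12.5% up to P6 and 1.99% at P21 (-0.19 ± 0.69, adjusted p = 0.920). In each of these 3 genes a single library stood apart from the other 5. Kcnma1, a calcium-activated potassium channel, and Cacna2d4, a calcium channel subunit of photoreceptor terminals, peaked at P6 instead, with 54.3% and 23.9%. Their other libraries had 25.9% to 39.3% and 8.66% to 15.6%, and neither ratio passed (adjusted p = 0.985 and 0.233).

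Among 23 sites tested in genes of chromatin regulators 1 rose and 0 fell (2 and 4 unadjusted, 1 and 0 with DESeq2). It lies in Smarca2, an ATPase of the BAF remodelling complex, and went from 0.258% to 3.54% (3.37 ± 0.62, edgeR quasi-likelihood adjusted p = 0.0138; named after its values were seen, and lost without E13.5, adjusted p = 0.0961). The Smarca2 call was also lost with days in place of stage order (adjusted p = 0.0631) and in the first columns alone (0.129), and without P6 or P21 the site had too few tags to be tested. Of 8 sites in neural splicing and RNA-binding genes, 0 rose and 0 fell (3 and 0 unadjusted, 0 and 0 with DESeq2), with Celf3 at 6.67% to 19.7% (1.41 ± 0.45, adjusted p = 0.104). Only 2 intronic sites lay in 45 cell cycle and DNA replication genes, in Smc2 and Prim1, and 1 lay in a microglial gene, Cx3cr1. Lens, red blood cell, pigment epithelium and vascular genes held none.

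Genes that act on polyadenylation also hold intronic sites. Wdr33, a subunit of the cleavage complex that helps read the AATAAA signal, had 33, 34, 68, 59, 88 and 97 tags in intron 7, 27648 bases past an own end. Its share was 6.80%, 6.75%, 11.8%, 14.5%, 17.9% and 24.2%, and the ratio rose (2.25 ± 0.36, edgeR quasi-likelihood adjusted p = 0.00801). Scaf4, which binds the polymerase tail and holds back early termination, had 10.5%, 17.6%, 25.9%, 36.1%, 30.3% and 49.1% at a site in intron 18 (chr16:90238630-90238648; 2.66 ± 0.46, adjusted p = 0.0106). In both genes the lowest shares were at E13.5 or E15.5 and the highest at P21. Both calls were lost without E13.5, without P21 and with diffSpliceDGE, and the highest adjusted p on leaving out a library was 0.114 for Wdr33 and 0.145 for Scaf4. Scaf4 also missed the threshold with days in place of stage order (adjusted p = 0.053).

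Cdk12, the kinase that keeps the polymerase processive on long genes, had 46.7% to 62.6% (0.66 ± 0.46, edgeR quasi-likelihood adjusted p = 0.453). Luc7l2, a U1-associated protein, had 28.5% to 34.6% in its last intron (0.30 ± 0.29, adjusted p = 0.602), and Fip1l1, a cleavage complex subunit, 8.91% to 12.1% (0.07 ± 0.37, adjusted p = 0.950). These 3 genes kept an intronic end in every library, and none of the ratios passed the test.

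The levels of the machinery itself were summed per gene. Of 21 tested genes of the U1 particle and its partners, 9 fell and 1 rose, with a median log2 change of -0.58 beside 0.01 for all genes, where 17.5% of 12976 coding genes rose and 11.8% fell. Snrpc, a protein of the U1 particle itself, had 37.2, 28.5, 32.8, 22.8, 20.6 and 13.2 CPM in stage order (-1.32 ± 0.35, edgeR quasi-likelihood adjusted p = 0.0288). Snrpf and Snrpe, core proteins shared with other spliceosomal particles, went from 56.4 to 11.3 CPM (-2.47 ± 0.36, adjusted p = 0.00452) and from 213 to 80.2 CPM (-1.37 ± 0.19, adjusted p = 0.00388). P21 was the lowest library for all 3.

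Of 23 tested cleavage and polyadenylation genes 2 rose and 2 fell. Ssu72, a phosphatase of the polymerase tail, was at 192, 180, 177, 214, 437 and 437 CPM (1.43 ± 0.33, edgeR quasi-likelihood adjusted p = 0.0172). Pcf11, a termination factor, went from 52.8 to 101 CPM (0.88 ± 0.24, adjusted p = 0.0298), and Ppp1ca, a phosphatase of the complex, from 362 to 211 CPM (-0.65 ± 0.18, adjusted p = 0.0330). Of 25 elongation and termination genes, 1 fell: Xrn2, the exonuclease that ends transcription, from 118 to 62.4 CPM (-0.75 ± 0.19, adjusted p = 0.0250). Whether these levels bear on the intronic shares was not tested.

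A few very long neuronal genes hold many distant sites. Cadm2, a synaptic adhesion molecule, held 16 over 965488 bases, with 65.5%, 60.4%, 62.1%, 68.6%, 70.0% and 67.5% of its tags in stage order. Of its 16 sites 12 rose in abundance, and of the 12 tested against the 3′ UTR 0 rose and 0 fell. Rorb, a nuclear receptor that patterns photoreceptors and horizontal cells, held 15 sites, of which 1 rose against the 3′ UTR, with 31.3%, 33.3%, 26.4%, 30.8%, 27.2% and 17.7%. Nlgn1, a postsynaptic adhesion molecule, held 12 with 24.5%, 26.2%, 29.7%, 29.2%, 28.6% and 13.1%, and Nrxn3, its presynaptic partner, 10 with 43.6%, 49.5%, 44.8%, 49.3%, 56.8% and 33.8%. In the last 3 genes P21 was the lowest library, unlike the pooled share. Gm20388, a gene model of 4434882 bases with no 3′ UTR site, held 16 sites, of which 5 rose in abundance.

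Each library held 3286158 to 4656153 tags, of which 53840 to 74343 lay on intronic sites, and a count of 3 tags corresponds to 0.644 to 0.913 CPM. What the 2 count columns of a stage stand for is not given in the sources used here. They were added and not treated as replicates. The edgeR p-values therefore set a trend along stage order against the departures of the 6 libraries from that line, not against a spread between replicates. Photoreceptor genes, which mark the labelled tissue, were found in all libraries. Vascular genes (10 measured) went up with stage, at 250, 342, 377, 389, 463 and 550 CPM. Pigment epithelium genes (7 measured) summed to 92.3, 82.9, 53.0, 74.0, 199 and 386 CPM, highest in the last libraries, where the intronic share was also highest. Neither list holds an intronic site, and their part in the rise of the share was not tested. Red blood cell genes summed to 160 to 943 CPM (7 measured) and microglial genes to 126 to 245 CPM (11 measured).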

How the data were processed

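The members, gene lists and tests were chosen with earlier results of these data known. Per the file headers, the authors deposited counts of tags per poly(A) site in 12 columns, 2 per stage, and 1 enrichment score per site. The submitters' processing notes name BWA 0.7.5a-r405 and mm10; clustering, filters and removal of duplicates are not given in the sources used here. Sites were placed on GENCODE M21 by their 3′ edge, with introns numbered on the merged exons of a gene. Counts were summed over both columns and tested over all sites with edgeR 4.0.16 (R 4.3.3; TMM scaling; quasi-likelihood; stage order as 1 term; 4 residual degrees of freedom). Abundance needed 1 CPM in 2 libraries. The test against 3′ UTR sites fitted the site and the summed 3′ UTR tags of each library together, with a term for their ratio along stage order. A 3′ UTR site was set against the other 3′ UTR sites of its gene. SE was derived from the fitted change and its F value. Sites in more than 1 coding gene (53) entered the abundance test only. DESeq2 1.42.0 and diffSpliceDGE were alternatives, and both tests were tested on simulated data.

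Named were the 10 sites with the most tags, the 8 largest rises and 8 falls against the 3′ UTR (mean of 20 tags or more at the site and at the 3′ UTR), up to 3 sites per gene list by tags, the 5 genes with the most sites, and up to 3 genes per machinery list. Some of the sites named by tags in the lists are not reported here. The planned search for poly(A) signals over all members was void, so signals were read at annotated ends only, a choice made after seeing the data.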

Additional observations from a re-analysis of the deposited data

How the results depend on the processing

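The rising share of tags kept its direction under every alternative run but 1: for sites up to 1000 bases past an own end rho was -0.257. It no longer passed with genes weighted equally (0.771) or without E15.5 and P0 (1.0 over 4 libraries, the smallest p being 0.0833); leaving out each library gave 0.9 to 1.0. Intronic sites rising in abundance numbered 260 in the first columns, and falling ones 46 without sites near own ends and 55 without E15.5 and P0. Leaving out each library gave 101 to 433 rising and 22 to 113 falling. Against the 3′ UTR, diffSpliceDGE called 25 rising and 13 falling, the first columns 34 and 19, and the libraries without E15.5 and P0 151 and 54. Leaving out each library gave 1 to 125 rising and 2 to 56 falling. The signal share was 61.9% for AATAAA alone and 91.3% with 11 further variants. The causes were not tested, except that fewer sites, fewer tags or other signals enter by construction.

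Of 539 values for single sites, 397 kept their direction and side of the threshold, 137 lost the call and 5 changed sign, all at sites that had not passed: Rgs9 with diffSpliceDGE (-0.0638), Rp1 in the second columns (1.4), Ilkap in the second columns (-0.132) and without P21 (-0.79; 0.849 without E13.5), and Camta1 without P21 (0.146; -0.447 without E13.5). The fits without E15.5 and P0, with genes weighted equally, on near-end sites alone and without the 10 strongest sites were chosen after seeing the data. Not run were the alternatives on A-rich sequence after a site, for which no genome sequence was used. Sites with few tags at E13.5 or P21 have wide errors. No paired analysis was possible because each stage has 1 sample.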
